A study of Mus musculus with 74 samples.

Results

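The genes described here are 7 that mark the change of the mouse intestinal epithelium from the suckling to the weaned state: Prdm1, Lct, Fcgrt and Ass1, which belong to the suckling epithelium, and Sis, Treh and Mgam, which belong to the weaned one. They were chosen by name, as 7 of the 24015 gene symbols of a table of RNA-seq read counts, with earlier results of these data known. They were followed in epithelium of the small intestine and of the adult ileum, with and without deletion of Cdx2, a homeodomain protein that drives intestinal transcription, and in embryonic stomach epithelium as a contrast. WT embryos were CD1 mice, with 2 libraries each of small intestine at E12, E14, E16 and E18 and of forestomach (squamous in the mouse) and hindstomach (glandular) at E12, E14 and E16; the labels call the small intestine cells at E12 and E14 midgut. Libraries labelled as Cdx2 knockout came from a B6;129 mixed background. They were small intestine at E16 with Cdx2f/f; Shh-Cre and deletion at E10 (3 libraries, no treatment named), small intestine at E16 with Cdx2f/f; Villin-Cre after 5 mg of tamoxifen by gavage at E13 (2 libraries), and small intestine at E18 of the same genotype after 5 mg at E15 (2 libraries). Adult ileum villi of the same mixed background were Cdx2f/f without Cre, given sunflower oil by injection on 5 days (2 libraries, called WT by the labels), or Cdx2f/f; Villin-Cre given 1 mg of tamoxifen on 5 days (2 libraries). In the embryonic comparisons of knockout with WT, strain and Cre therefore cannot be told apart from deletion. For deletion at E13 and E15 the same holds for tamoxifen, which the labels do not name for WT embryos. Cre and tamoxifen cannot be told apart from deletion in the adult comparison either. The libraries deleted at E10 and at E13 also differ in Cre and tamoxifen. Shh-Cre is active in the early endoderm and its descendants, and Villin-Cre in the intestinal epithelium. Epithelium at E16 or earlier was dissociated with trypsin and sorted for Epcam, an epithelial surface protein, whereas E18 and adult villi were released with EDTA. Stage and preparation therefore cannot be told apart between libraries labelled E16 and E18. The labels do not say whether the libraries of a group came from separate animals or pools, so the tests measure only the spread between these libraries, which may be technical.

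In rodents the enterocyte of the suckling period digests lactose, takes up milk proteins, and makes arginine, which milk supplies poorly. It also takes up antibodies whole through the neonatal Fc receptor. Around weaning, weeks after birth, this suckling program is replaced by one for plant sugars, with sucrase-isomaltase, maltase-glucoamylase and trehalase in the brush border, while arginine synthesis is lost. The repressor Blimp1, encoded by Prdm1, holds the fetal and suckling epithelium in the first state, and Cdx2 is known to bind the promoters of several brush border hydrolases, among them Sis and Lct.

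As a check of the labels, the targeted gene was read in each library. Cdx2 in WT small intestine was at 144 and 109 CPM (counts scaled to a common library size over all 31 libraries) at E12, 117 and 144 at E14, 184 and 204 at E16, and 186 and 193 at E18. It fell to 16.8, 13.97 and 26.7 CPM in the 3 libraries labelled deleted at E10 (log2 fold change against E16 WT -3.40, SE 0.27, adjusted edgeR p 3.04e-09). With deletion labelled at E13 it was at 197 and 202 CPM, with deletion labelled at E15 at 359 and 343, and adult ileum held 340 and 346 in WT against 729 and 698 in the libraries labelled knockout. Cdx2 counts thus went against the label in the last 3 knockout groups, and for these groups each direction below refers to the label; gene-level counts do not tell whether an exon is missing. In the stomach at E16, Cdx2 was at 0.444 and 0 CPM in forestomach and 11.4 and 12.3 in hindstomach.

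A further feature of the libraries bears on every comparison with E18. The 6 libraries labelled E18 WT, deleted at E13 and deleted at E15 held 0.0513 to 0.918 CPM of H19, a non-coding RNA of the imprinted fetal growth locus, and 1.74 to 10.1 CPM of its neighbour Igf2. The other 21 embryonic libraries, the 3 labelled deleted at E10 among them, held 317 to 1320 CPM of H19 and 266 to 1790 of Igf2, and the 4 adult libraries held 0.176 to 4.73 and 0.97 to 51.0. The same 6 libraries held 5.21 to 203 CPM of the T cell gene Cd8a and 24.7 to 625 of Gzma, a granzyme of intraepithelial lymphocytes, against at most 1.61 and 6.09 CPM in the other embryonic libraries. Cd3e, also of T cells, did not separate them fully: it was at 1.24 to 61.5 CPM in the 6, lowest after deletion at E15 (1.24 to 1.43), and at up to 4.74 in the others, highest in E16 forestomach. Reg3b and Reg3g, antimicrobial lectins of the epithelium, did not separate them either, at 561 to 4440 and 44.6 to 890 CPM in the 6 against up to 4430 and 1740 in the other embryonic libraries, highest after deletion at E10. Across genes, their Spearman correlation was 0.911 to 0.950 with adult WT ileum and 0.809 to 0.845 with E16 WT small intestine. The replicates of these 3 groups also lay closest, with a chi-square per degree of freedom of 1.5, 2.4 and 4.8 for E18 WT, deleted at E13 and deleted at E15, against 9.19 to 122.57 in the other replicate pairs. These genes were chosen after their values were seen, and what sets the 6 libraries apart was not tested. The stage labels of these 6 libraries are therefore in doubt, and E18, deleted at E13 and deleted at E15 name libraries by their label throughout.

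**Figure D1:**
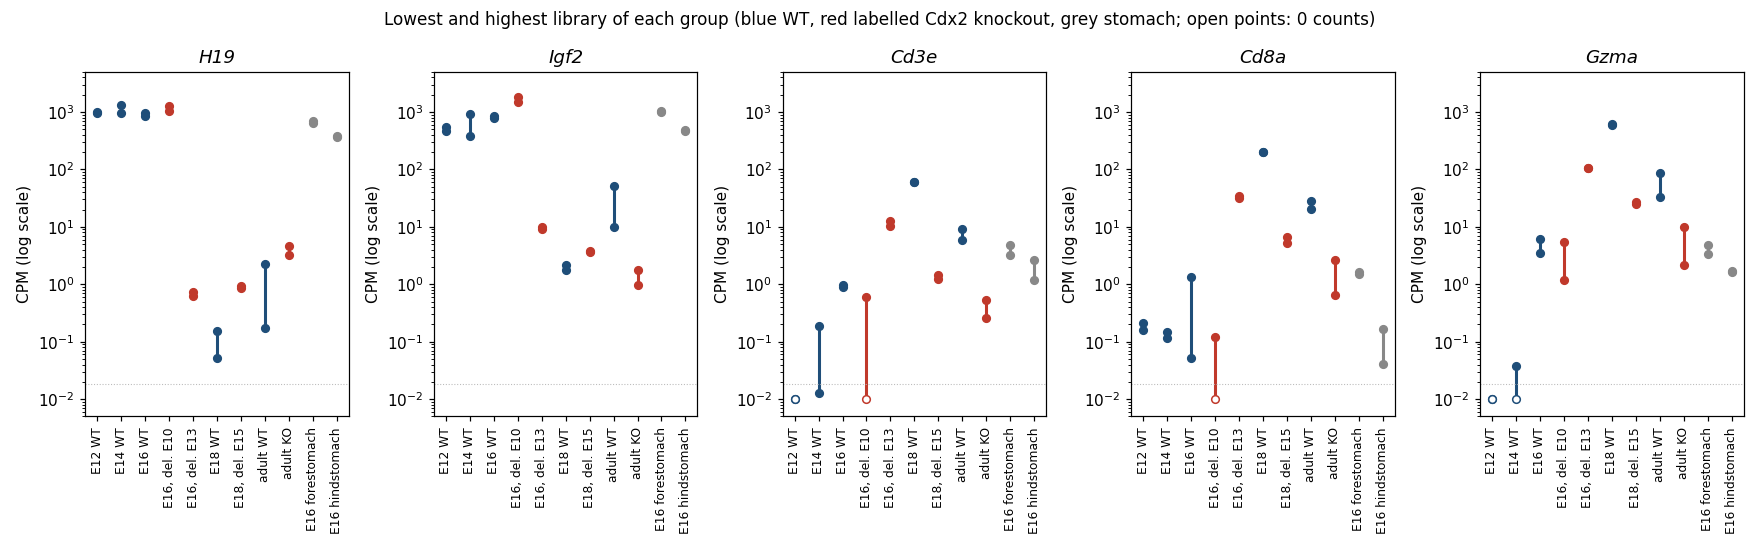
CPM on a log scale (vertical axis) of the fetal genes H19 and Igf2 and the lymphocyte genes Cd3e, Cd8a and Gzma in each small intestine and ileum group and in E16 stomach (horizontal axis); points are the lowest and highest library of a group. H19 was at 0.918 CPM or less in the libraries labelled E18 WT, deleted at E13 and deleted at E15, and at 317 CPM or more in the other 21 embryonic libraries.

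Prdm1, the regulator of the group, was highest in the fetal WT intestine and lower at E18. It stood at 77.5 and 68.0 CPM at E12, 155 and 164 at E14, 83.9 and 66.1 at E16 and 21.2 and 23.5 at E18, so that E12 and E16 overlapped while E14 lay above and E18 below them. It rose from E12 to E14 (log2 fold change 1.13, SE 0.22, adjusted edgeR p 0.000958), fell from E14 to E16 (-1.07, SE 0.22, adjusted edgeR p 0.000769) and fell again in the libraries labelled E18 (-1.74, SE 0.23, adjusted edgeR p 3.1e-06). The fall from E14 to E16 lay close to the threshold of 1 on the log2 scale: it was -0.92 with RLE scaling, with DESeq2 and without E16 WT replicate 2, and under each of these it was no longer called. Adult WT ileum held 28.3 and 33.8 CPM, above both E18 libraries. Since these are bulk samples, fewer cells of a type and less RNA per cell cannot be told apart here or below.

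Lct, Fcgrt and Ass1, the suckling genes, came on together between E14 and E16. Lct, which encodes lactase, went from 0.711 and 0.410 CPM at E14 to 453 and 397 at E16 (log2 fold change 9.45, SE 0.45, adjusted edgeR p 6.8e-11) and to 4579 and 4595 at E18 (a further 3.44, SE 0.32, adjusted edgeR p 5.35e-08). Fcgrt, the neonatal Fc receptor that carries maternal IgG across the epithelium, went from 14.01 and 10.6 CPM to 466 and 431 (5.19, SE 0.83, adjusted edgeR p 6.58e-05). Ass1, which encodes argininosuccinate synthetase of arginine synthesis, went from 4.10 and 4.47 CPM to 125 and 110 (4.80, SE 0.34, adjusted edgeR p 3.44e-09). In none of the 3 genes did E14 and E16 overlap. Enterocyte markers took 0.0881% to 0.0923% of the counts at E14 and 1.27% to 1.32% at E16, mesenchyme and muscle markers 0.0405% to 0.0467% and 0.156% to 0.173%, and blood markers at most 0.000259% and 0.0181%; their part in these rises was not tested.

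After E16 the suckling genes parted. Ass1 fell to 2.30 and 2.20 CPM in the libraries labelled E18, below its level at E12 (log2 fold change against E16 -5.70, SE 0.36, adjusted edgeR p 2.2e-10). Fcgrt stood at 134 and 133 CPM there (-1.74, SE 0.72, adjusted edgeR p 0.0458), but this call was lost with DESeq2 (adjusted p 0.166), with RLE scaling (adjusted edgeR p 0.0503) and when any of the 4 libraries compared was left out (adjusted edgeR p 0.0986 to 0.161). Lct was the one suckling gene that was higher at E18 than at E16, and in adult WT ileum it still held 3221 and 408 CPM, so that the replicates there differed more than those of any other member.

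The promoters of Sis, Lct and Mgam are shown because, of the members' promoters, these hold matches to the letters that Cdx2 binds. Each line gives the 250 bases before the annotated start from RefSeq (GRCm38.p6), 5′ to 3′ on the gene's own strand, with every TTTAT or its reverse complement ATAAA in capitals. These letters are the core of the Cdx2 binding sequence, and a pair of them lies in the element of the Sis promoter that Cdx2 is known for. Sis lies at chr3:72967864-72968113 and Lct at chr1:128328319-128328568, both on the minus strand, and Mgam at chr6:40628581-40628830 on the plus strand.
Sis: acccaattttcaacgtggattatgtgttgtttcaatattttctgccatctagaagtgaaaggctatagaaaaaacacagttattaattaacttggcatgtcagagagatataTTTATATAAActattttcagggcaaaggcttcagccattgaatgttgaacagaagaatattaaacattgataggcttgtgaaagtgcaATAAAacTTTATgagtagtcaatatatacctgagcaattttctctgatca
Lct: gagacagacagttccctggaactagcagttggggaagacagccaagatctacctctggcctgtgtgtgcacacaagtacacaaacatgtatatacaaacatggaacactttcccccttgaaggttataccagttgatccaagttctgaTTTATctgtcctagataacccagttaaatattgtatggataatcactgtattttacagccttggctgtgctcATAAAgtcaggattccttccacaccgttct
Mgam: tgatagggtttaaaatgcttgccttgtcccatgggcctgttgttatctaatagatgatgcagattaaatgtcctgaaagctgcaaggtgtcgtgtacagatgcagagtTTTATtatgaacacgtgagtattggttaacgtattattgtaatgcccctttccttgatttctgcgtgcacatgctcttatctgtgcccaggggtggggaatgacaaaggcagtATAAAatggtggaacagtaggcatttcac
The Sis promoter held 4 matches, at bases -138, -133, -50 and -43 from the start, and 2.27% of the 32851 promoters of this length held as many. Lct held 2 matches, at -102 and -30, and Mgam 2, at -142 and -29, as 14.3% of promoters did; the matches at -30 and -29 fall where a TATA box usually lies. GATAA or its reverse complement TTATC, the letters of GATA factors, shares bases with the first motif in GATAAA and its complement TTTATC. It was found 3 times in Lct (0.712% of promoters held as many), where 1 of the 3 lies across the TTTAT match at -102 and is not separate from it, 2 times in Mgam (4.28%) and 0 times in Sis. In the same windows of Prdm1, Treh, Fcgrt and Ass1 neither motif was found; 37.3% of all promoters held at least 1 match to TTTAT and 22.6% at least 1 to GATAA. A match is a run of letters and not a bound site, and a window without one says nothing of the factor. All 7 members had a promoter entry.

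Of the 3 genes of the weaned program, Sis and Treh had little or no signal at E16, and all were high in the libraries labelled E18. Sis, sucrase-isomaltase, had 0 and 0 CPM at E12, 0 and 0.0373 at E14, 6.71 and 6.40 at E16, and 8535 and 8665 at E18. From E16 to E18 this was a log2 fold change of 10.37 (SE 1.45, adjusted edgeR p 4.04e-05). Treh, the brush border trehalase, had 0 counts in every WT small intestine library up to E16 and 1323 and 1313 CPM at E18, at least 8930-fold higher than a floor of 3 counts per library (adjusted edgeR p 1.56e-11). Treh was therefore at the floor until E16, and Sis until E14. At E18 both stood at or above the 7985 and 6408 CPM (Sis) and the 365 and 155 CPM (Treh) of adult WT ileum.

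Mgam, maltase-glucoamylase, was measured well above the floor in both libraries of the earliest stage, at 21.1 and 5.68 CPM at E12, 41.5 and 44.2 at E14 and 103 and 83.4 at E16. It reached 6478 and 6414 CPM at E18 (log2 fold change against E16 6.12, SE 0.60, adjusted edgeR p 6.05e-08), close to the 6136 and 4547 CPM of adult WT ileum. E18 and adult libraries were made with different kits, so no test was made between them.

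**Figure D2:**
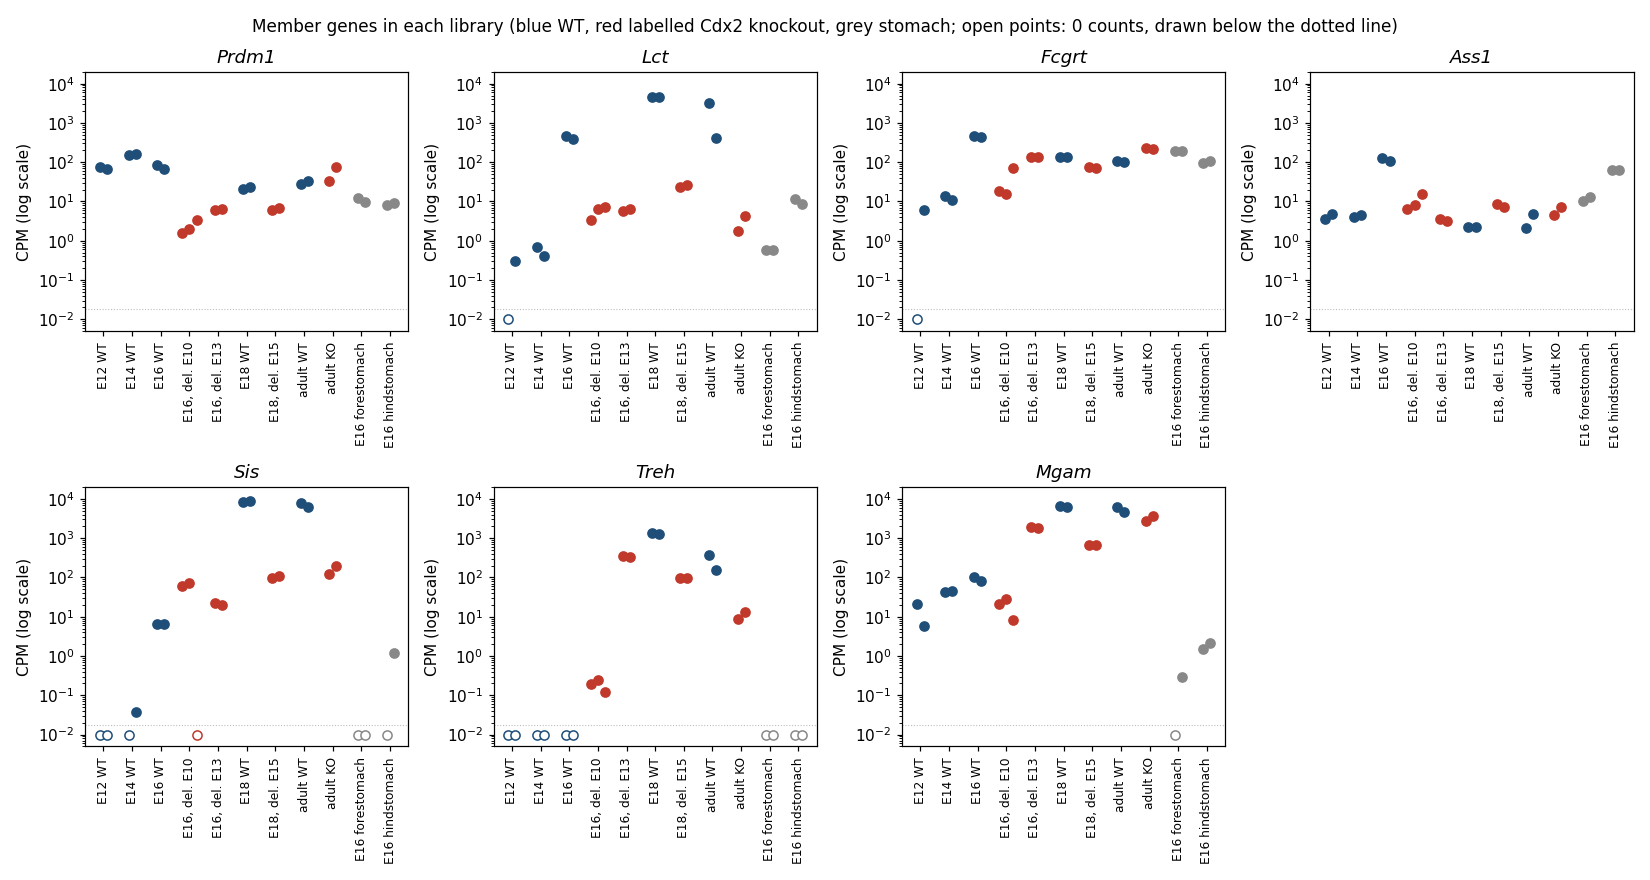
CPM on a log scale (vertical axis) of the 7 members in each library (points), by group (horizontal axis); red points are libraries labelled Cdx2 knockout and open points mark 0 counts. In WT small intestine up to E16, Sis is at 6.71 CPM or less and Treh at 0, and at E18 they are at 8535 and 1313 CPM or more, while Ass1 and Fcgrt peak at E16.

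The members' calls along the WT course were read against the share of all genes called. A gene was called at an adjusted edgeR p below 0.05 and a log2 fold change of at least 1 in either direction. From E12 to E14, 3 of 7 members were called, all higher, as were 16.2% of the 17239 genes tested (11.3% higher, 4.89% lower); the number of genes called was 2795, but 4895 without E12 replicate 2, 1762 without E14 replicate 2 and 214 of 14291 in a fit of only these groups. The calls of Lct and Mgam were lost when single libraries were left out (adjusted edgeR p up to 0.335 for Lct, without E14 replicate 1, and 0.108 for Mgam, without E12 replicate 2). From E14 to E16, 5 were called (4 higher, 1 lower), against 25.6% of all genes (13.7% higher, 11.9% lower). Sis, with 0 and 1 counts at E14, lost its call without E14 replicate 1 (log2 fold change 7.27). Mgam was not called, though its libraries did not overlap. It was called higher with RLE scaling (1.3, adjusted edgeR p 0.0421), with a replicate block (1.13, adjusted edgeR p 0.0368) and in a fit of only these groups (1.18, adjusted edgeR p 0.000242). From E16 to E18 all 7 were called (4 higher, 3 lower), against 42.1% (20.1% higher, 22.1% lower). Here the preparation also went from sorted cells to villi released with EDTA, so that stage and preparation cannot be told apart. The median log2 fold change of the members over these 3 steps was 1.58, 4.80 and 3.44, and that of all genes tested 0.07, -0.08 and -0.05. Marker genes of enterocytes took 1.27% to 1.32% of the counts at E16 and 4.28% to 4.30% at E18, and lymphocyte genes, mesenchyme and fetal genes also differed between these stages; their part in the members' changes was not tested.

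The ratio of counts of a pair of genes gives a narrow view of the balance of the 2 programs within a library. For the same pair it does not depend on depth. For each count of Lct, E16 WT small intestine held 0.0148 and 0.0161 counts of Sis, E18 held 1.86 and 1.89, and adult WT ileum held 2.48 and 15.7. Among WT libraries, those of E16 stood apart on the suckling side by this ratio, and those of E18 on the side of the adult ileum. The libraries deleted at E10 held 18.5, 11.6 and 0 counts of Sis per count of Lct, with H19 as in the other fetal libraries. A high ratio alone therefore does not mark a library as like the adult.

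**Figure D3:**
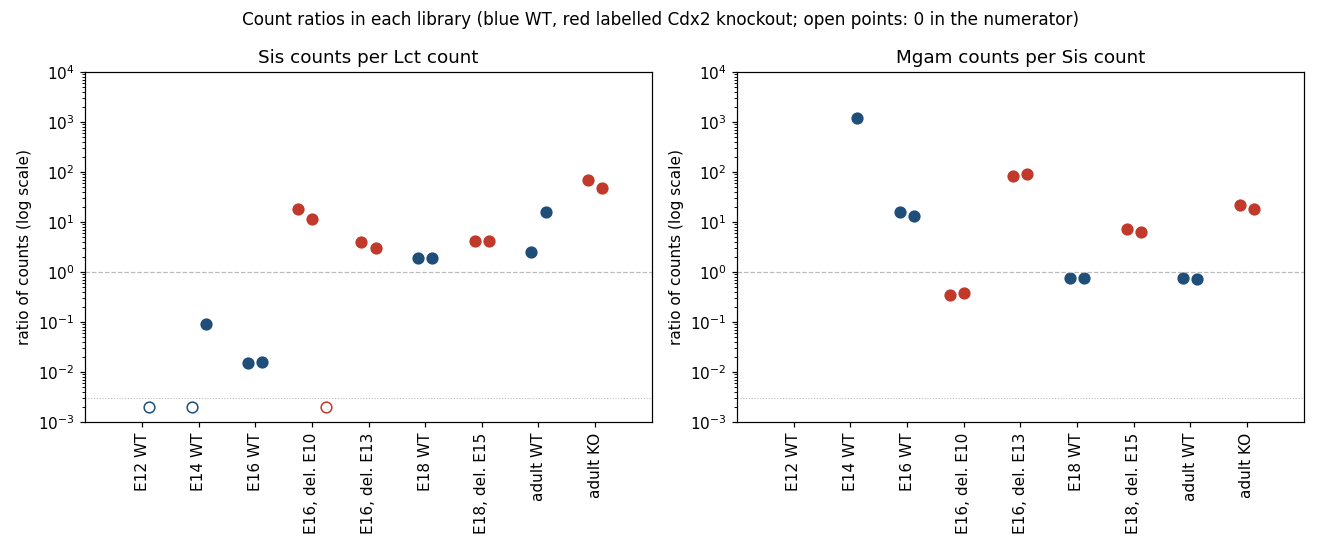
Counts of Sis per count of Lct (left) and of Mgam per count of Sis (right) in each library (points), on a log scale, for each small intestine and ileum group (horizontal axis); libraries with 0 counts in the denominator have no point. Sis per Lct is 1.86 or more in every library labelled E18 WT, deleted at E13, deleted at E15 or adult. It is 18.5, 11.6 and 0 in the libraries deleted at E10. Mgam per Sis is at most 0.768 in E18 and adult WT and at least 6.17 after deletion at E15 and in the adult knockout.

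The stomach at E16 was the contrast to the small intestine of the same stage. Lct stood at 0.593 and 0.585 CPM in forestomach and 11.3 and 8.88 in hindstomach, against 453 and 397 in small intestine (log2 fold change 9.51, SE 0.52, adjusted edgeR p 7.53e-11 against forestomach, and 5.41, SE 0.36, adjusted edgeR p 3.31e-09 against hindstomach). Mgam stood at 0 and 0.292 CPM in forestomach and 1.47 and 2.10 in hindstomach (adjusted edgeR p 4.26e-07 and 9.4e-07). Prdm1 stood at 12.4 and 9.65 CPM and 8.30 and 9.25 CPM, all below the small intestine (adjusted edgeR p 2.47e-08 and 1.39e-08). Lct, Mgam and Prdm1 were thus higher in the intestine with no overlap.

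Fcgrt and Ass1 were also measured in the stomach. Fcgrt held 188 and 189 CPM in forestomach, where the difference was not called (log2 fold change 1.28, SE 0.71, adjusted edgeR p 0.148) although the libraries did not overlap; in a fit of only these groups it was called (1.29, adjusted edgeR p 1.62e-05). It held 95.7 and 106 in hindstomach (2.16, SE 0.73, adjusted edgeR p 0.0241, not called when any 1 of the 4 libraries was left out, adjusted edgeR p 0.0655 to 0.126). Ass1 held 10.1 and 12.7 CPM in forestomach (3.40, SE 0.32, adjusted edgeR p 6.09e-08) and 62.7 and 64.1 in hindstomach, below the 125 and 110 of small intestine by less than the threshold (0.90, SE 0.29, adjusted edgeR p 0.0192). In a fit of only small intestine and hindstomach at E16, Ass1 was called (1.0, adjusted edgeR p 0.000102). Treh had 0 counts in all 12 stomach libraries, and Sis had counts in only 1 of them, 29 in an E16 hindstomach library. The Sis difference was not called (adjusted edgeR p 0.0834 against forestomach and 0.0814 against hindstomach), but was in fits of only the groups compared (0.000465 and 0.0279). In each contrast 4 of 7 members were called, all higher in small intestine. Of all genes, 35% were called against forestomach (16.4% higher, 18.6% lower) and 25.7% against hindstomach (8.1% higher, 17.5% lower). Marker genes of mesenchyme and muscle took 2.59% to 3.1% of the counts in E16 forestomach and 0.888% to 0.924% in hindstomach, against 0.156% to 0.173% in small intestine. Blood markers, of which 6 of 7 genes were at 0 in each of these groups, took 1.44% to 1.88% in forestomach, 0.12% to 0.169% in hindstomach and at most 0.0181% in small intestine, and general epithelial markers 0.081% to 0.0913%, 0.622% to 0.655% and 0.813% to 0.834%, so that the forestomach libraries held few of these epithelial transcripts. The part of these differences was not tested. At E12 Prdm1 stood at 84.6 and 89.7 CPM in hindstomach, above the 77.5 and 68.0 of small intestine.

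Deletion of Cdx2 at E10 was accompanied at E16 by lower suckling genes. Lct fell to 3.35, 6.38 and 7.30 CPM (log2 fold change against E16 WT -6.31, SE 0.32, adjusted edgeR p 1.33e-11). Prdm1 fell to 1.61, 1.94 and 3.47 CPM (-5.11, SE 0.24, adjusted edgeR p 2.44e-12), the lowest of all small intestine and ileum groups. Ass1 fell to 6.26, 8.07 and 15.4 CPM (-3.63, SE 0.28, adjusted edgeR p 9.72e-10), Fcgrt to 18.6, 15.3 and 72.7 (-3.73, SE 0.67, adjusted edgeR p 7.29e-05) and Mgam to 21.5, 27.8 and 8.26 (-2.30, SE 0.45, adjusted edgeR p 0.000196). In each of these 5 genes every deleted library lay below both E16 WT libraries.

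Sis went the other way in the libraries deleted at E10, but not alike in all 3. Sis held 62.1, 73.9 and 0 CPM, that is 963, 916 and 0 counts, so that replicate 3 lay below E16 WT and the others above it. The Sis call (2.77, SE 1.05, adjusted edgeR p 0.0343) was lost without replicate 1 (adjusted edgeR p 0.0648), without replicate 2 (0.0857), without either E16 WT library (0.137 and 0.142), in a fit of only these groups (0.109) and with DESeq2 (0.451), and was 3.34 without replicate 3. Treh had 3, 3 and 1 counts, all at or under the floor of 3 counts, and no fold is given. With Treh included, all 7 members were called (2 higher, 5 lower), against 51.5% of all genes (23.9% higher, 27.6% lower), so that calls were common in this comparison. Enterocyte markers took 0.224% to 0.367% of the counts against 1.27% to 1.32% in E16 WT, and stomach markers 0.252% to 0.566% against at most 0.000683%; their part in the lower brush border genes was not tested.

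The libraries labelled deleted at E13 showed high Treh and Mgam at E16 without high Sis. Treh held 344 and 341 CPM, at least 2320-fold above the floor in E16 WT (adjusted edgeR p 3.79e-11), and Mgam held 1880 and 1809 (log2 fold change 4.32, SE 0.55, adjusted edgeR p 2.01e-06). Sis held 23.0 and 19.8 CPM, above the 6.71 and 6.40 of E16 WT with no overlap but not called (1.72, SE 1.07, adjusted edgeR p 0.197); a fit of only these groups called it (1.75, adjusted edgeR p 6.91e-05). Of the suckling genes, Lct fell to 5.88 and 6.55 CPM (-6.08, SE 0.37, adjusted edgeR p 2.82e-10), Ass1 to 3.53 and 3.19 (-5.11, SE 0.35, adjusted edgeR p 5.67e-10) and Prdm1 to 5.95 and 6.34 (-3.59, SE 0.25, adjusted edgeR p 7.64e-10). Fcgrt held 132 and 136 CPM (-1.73, SE 0.71, adjusted edgeR p 0.0489), a call that was lost with DESeq2 (adjusted p 0.165) and without any 1 of the 4 libraries (adjusted edgeR p 0.106 to 0.173). In all, 6 of 7 members were called against E16 WT (2 higher, 4 lower), against 39.5% of all genes (18.7% higher, 20.8% lower). Enterocyte markers took 2.84% to 2.92% of the counts against 1.27% to 1.32% in E16 WT, and mesenchyme and muscle markers 0.00502% to 0.0053% against 0.156% to 0.173%. Stomach markers took 0.224% to 0.231% against 0.000485% to 0.000683%, immune markers 0.13% to 0.135% against 0.0267% to 0.0273% and goblet markers 0.463% to 0.464% against 0.19% to 0.221%. The part of these markers' cells was not tested.

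Since these libraries stood with E18 WT in their fetal and lymphocyte genes, they were also set against E18 WT, a comparison added after the data were seen. The labelled stage and the preparation differ in it as well, and cannot be told apart from deletion. There, 5 of 7 members were called and all were lower, against 16.1% of all genes called (8.19% higher, 7.91% lower). The number of genes called was 2775 of 17239, but 4040 of 13717 in a fit of only these groups. Lct was lower by 9.52 on the log2 scale (log2 fold change -9.52, SE 0.43, adjusted edgeR p 2.21e-11) and Sis by 8.65 (-8.65, SE 1.34, adjusted edgeR p 0.000338). Treh (-1.94, SE 0.12, adjusted edgeR p 1.1e-06), Prdm1 (-1.86, SE 0.24, adjusted edgeR p 8.28e-06) and Mgam (-1.80, SE 0.49, adjusted edgeR p 0.0104) were lower by less. The Mgam call was lost without either deleted library (adjusted edgeR p 0.0743 and 0.0833) and with DESeq2 (0.0516). Fcgrt (0.01, SE 0.70) and Ass1 (0.59, SE 0.33) were not called, with adjusted edgeR p of 1 and 0.226. Against E16 WT, then, 2 genes of the weaned program were higher, and against E18 WT 0 were. Cd8a stood at 31.7 to 34.0 CPM here against 203 in both E18 WT libraries, enterocyte markers took 2.84% to 2.92% of the counts against 4.28% to 4.30%, and stomach markers took 0.224% to 0.231% of the counts, led by Gkn1 and Gkn2 of gastric surface mucous cells, against at most 3.43e-05%; their part in the members' differences was not tested.

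The 2 knockout groups at E16 differed from each other in 5 of 7 members (4 higher after deletion at E13, 1 lower), where 57.4% of all genes were called (29.3% higher, 28.1% lower). Mgam (log2 fold change 6.62, SE 0.52, adjusted edgeR p 8.22e-10) and Prdm1 (1.51, SE 0.25, adjusted edgeR p 1.9e-05) were higher after deletion at E13, as were Treh, which was at the floor after deletion at E10, and Fcgrt (2.00, SE 0.65, adjusted edgeR p 0.0103). Fcgrt was no longer called without E10 replicate 2 (adjusted edgeR p 0.0542) or with DESeq2 (adjusted p 0.089). Ass1 was lower (-1.48, SE 0.30, adjusted edgeR p 0.000183). Enterocyte markers took 2.84% to 2.92% of the counts after deletion at E13 and 0.224% to 0.367% after deletion at E10, and their part was not tested. Lct overlapped between them (0.23, SE 0.33, adjusted edgeR p 0.557), and Sis was not called (-1.05, SE 0.94, adjusted edgeR p 0.341); without E10 replicate 3, whose Sis count was 0, Sis was lower after deletion at E13 (-1.62, adjusted edgeR p 0.00139).

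The libraries labelled deleted at E15 were compared with E18 WT, which they shared a stage and a tissue preparation with. All 4 brush border hydrolases were lower. Lct fell from 4579 and 4595 to 23.7 and 26.6 CPM (log2 fold change -7.49, SE 0.39, adjusted edgeR p 2.14e-10), Sis from 8535 and 8665 to 97.1 and 112 (-6.35, SE 1.21, adjusted edgeR p 0.00134), Treh from 1323 and 1313 to 97.0 and 96.4 (-3.76, SE 0.13, adjusted edgeR p 1.95e-08) and Mgam from 6478 and 6414 to 687 and 689 (-3.21, SE 0.52, adjusted edgeR p 9.88e-05). The Sis difference was not called by DESeq2 (adjusted p 0.145), though its groups lay far apart. Lactase and the disaccharidases of the weaned program thus fell together, whichever program they belong to.

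Fcgrt, Ass1 and Prdm1, which are not brush border hydrolases, differed by less after deletion at E15. Fcgrt held 73.5 and 72.4 CPM against 134 and 133 (log2 fold change -0.86, SE 0.71, adjusted edgeR p 0.413). Ass1 rose from 2.30 and 2.20 to 8.41 and 7.45 CPM (1.83, SE 0.33, adjusted edgeR p 0.000271), still far under its level at E16. Prdm1 fell from 21.2 and 23.5 to 6.16 and 6.85 CPM (-1.76, SE 0.24, adjusted edgeR p 1.36e-05). In all, 6 of 7 members were called, 1 higher and 5 lower, against 17.5% of all genes (7.79% higher, 9.7% lower). The number of genes called was 3015 of 17239, but 3951 of 13205 in a fit of only these groups. Enterocyte markers took 2.77% to 2.86% of the counts against 4.28% to 4.30% in E18 WT, Paneth and crypt markers 0.192% to 0.195% against 0.0404% to 0.0405%, and cycling markers 0.0671% to 0.0732% against 0.0214% to 0.0219%. Their part in the lower hydrolases was not tested. Cd8a fell to 5.21 and 6.71 CPM from 203 in both E18 WT libraries and Gzma to 24.7 and 27.4 from 604 and 625. Prdm1 is also expressed in lymphocytes, and the part of these cells in its difference was not tested.

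**Figure D4:**
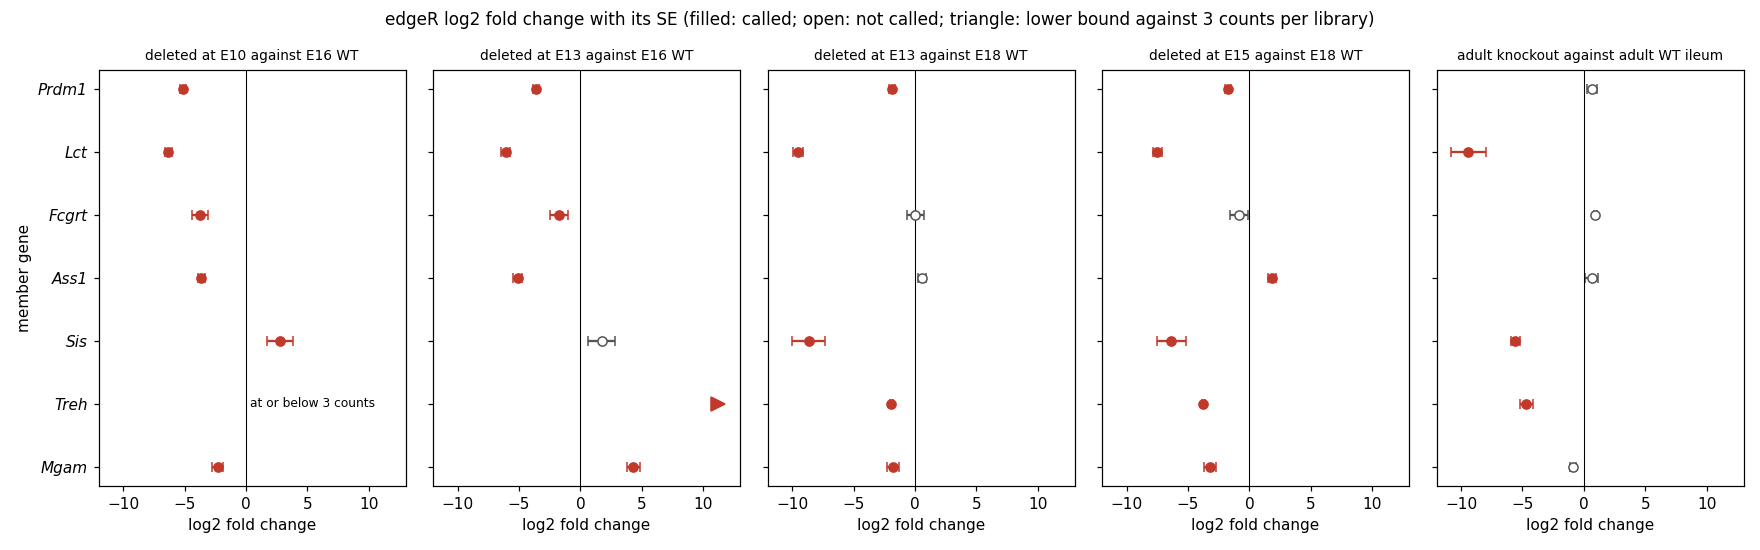
edgeR log2 fold change (horizontal axis) with its SE (bars) of the 7 members (vertical axis) in the 5 comparisons of libraries labelled knockout with WT; filled points were called, and the triangle is a lower bound. Lct is lower in every panel, from -6.08 to -9.52, while Sis is lower against E18 and adult WT and higher or not called against E16 WT.

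In the adult ileum the libraries labelled knockout held less of 3 members. Sis fell from 7985 and 6408 CPM to 125 and 200 (log2 fold change -5.59, SE 0.36, adjusted edgeR p 0.00218). Lct fell from 3221 and 408 CPM to 1.79 and 4.31 (-9.40, SE 1.41, adjusted edgeR p 0.0112), and Treh from 365 and 155 to 8.63 and 13.6 (-4.69, SE 0.54, adjusted edgeR p 0.00601). No knockout library overlapped WT in these 3 genes, although the WT libraries themselves differed widely in Lct.

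Mgam was not among the called genes in the adult, at 2674 and 3596 CPM against 6136 and 4547 in WT (log2 fold change -0.89, SE 0.26, adjusted edgeR p 0.056). Fcgrt was at 224 and 212 CPM against 110 and 101, by less than the threshold (0.93, SE 0.11, adjusted edgeR p 0.00684). Ass1 (4.60 and 7.33 against 2.11 and 4.83 CPM; 0.64, SE 0.51, adjusted edgeR p 0.372) and Prdm1 (32.7 and 74.7 against 28.3 and 33.8 CPM; 0.66, SE 0.42, adjusted edgeR p 0.271) overlapped between the groups, with knockout replicate 2 highest for both. In all, 3 of 7 members were called, all lower, against 20.4% of the 12444 genes tested (8.41% higher, 12% lower). Without knockout replicate 1 the calls were 2 (Sis lower and Prdm1 higher), and without knockout replicate 2 also 2 (Sis and Treh lower); the genes called over the whole table went from 2544 to 1254 and 1562. In these fits the lone knockout library is assumed to vary like WT. Enterocyte markers took 3.49% to 3.67% of the counts in the knockout against 3.15% to 3.36% in WT, but the 8 genes of the list did not move alike. Vil1, of the brush border cytoskeleton, was at 3040 to 3450 CPM against 6140 to 6490 in WT, Cdh17 at 2070 to 2210 against 3170 to 3430, Fabp2 at 5230 to 6470 against 8750 to 11000 and Alpi, intestinal alkaline phosphatase, at 112 to 121 against 1790 to 1850. Apoa4 was at 16500 to 20300 against 3890 to 6260, Fabp1 at 2580 to 3940 against 184 to 557 and Apoa1 at 17200 to 19100 against 14500 to 14800, while Krt20 overlapped. The lymphocyte genes were lower in the knockout, with Cd8a at 0.639 to 2.69 CPM against 20.5 to 28.2 and Gzma at 2.17 to 9.91 against 33.5 to 88.0. The part of these genes' cells in the members' differences was not tested.

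Set side by side, each with its own WT group, Sis per count of Lct was 4.09 and 4.20 after deletion at E15 against 1.86 and 1.89 in E18 WT, and 70.1 and 46.5 against 2.48 and 15.7 in the adult. Both genes fell in both comparisons, and Lct the further. Mgam per count of Sis was 7.08 and 6.17 after deletion at E15 against 0.759 and 0.740, and 21.3 and 18 against 0.768 and 0.710 in the adult. Within this pair of alpha-glucosidases, both knockout groups thus held more Mgam per Sis than their WT, as did deletion at E13 (81.7 and 91.5 against 15.4 and 13 in E16 WT). The libraries deleted at E10 did not go one way: 2 were at 0.347 and 0.376, below E16 WT, and replicate 3 had 69 counts of Mgam and 0 of Sis.

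The effect of deletion at E13 (against E16 WT) and at E15 (against E18 WT) differed in 6 of 7 members by the interaction term of the same fit, where 37.9% of all genes were called (19.8% higher, 18.1% lower). Sis (difference of log2 fold changes 8.07, SE 1.57, adjusted edgeR p 0.000898, not called by DESeq2 with an adjusted p of 0.171) and Mgam (7.53, SE 0.76, adjusted edgeR p 1.37e-07) were called higher in the first, as was Treh. Ass1 (-6.94, SE 0.47, adjusted edgeR p 8.71e-10) and Prdm1 (-1.83, SE 0.33, adjusted edgeR p 0.000144) were called lower. The difference in Lct (1.41, SE 0.43, adjusted edgeR p 0.0128) was not called in a fit of all libraries (adjusted edgeR p 0.173). Its call was also lost without E16 WT replicate 2 (1.32) or without E15 replicate 1 (1.33). Fcgrt was not called (-0.87, SE 0.99, adjusted edgeR p 0.539). The interaction sets E18 WT against E16 WT as much as one deletion against the other, and these cannot be told apart. Libraries of E16 and E18 also differ in preparation.

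Related genes of the same pathways were read from a list of 34, which includes Cdx2 itself. All but 1 of them were tested in every comparison. From E14 to E16, 18 were called higher and 0 lower, where 13.7% and 11.9% of all genes were. These included Glb1, the lysosomal beta-galactosidase (log2 fold change 2.86, SE 0.19, adjusted edgeR p 1.43e-09), Nags, N-acetylglutamate synthase, which makes the activator of citrulline synthesis (5.05, SE 1.00, adjusted edgeR p 0.00067), Amn, the partner of cubilin in protein uptake (2.89, SE 1.03, adjusted edgeR p 0.0315) and Slc5a1, the sodium-glucose transporter (4.07, SE 0.71, adjusted edgeR p 0.000152). From E16 to E18, 10 were called higher and 11 lower, where 20.1% and 22.1% of all genes were. All 4 genes of sugar uptake and fructose use were higher, among them the fructose transporter Slc2a5 (6.15, SE 0.79, adjusted edgeR p 2.25e-06) and ketohexokinase, Khk (5.52, SE 0.21, adjusted edgeR p 3.22e-13). Of 5 lysosomal hydrolases 3 were lower, led by Glb1 (-3.03, SE 0.19, adjusted edgeR p 1.99e-10), with 0 higher. Of 5 genes of milk protein uptake 2 were higher and 2 lower: Cubn went from a mean of 54.9 CPM to 828 (adjusted edgeR p 1.78e-05) and B2m, the light chain of the neonatal Fc receptor, from 277 to 2412 (adjusted edgeR p 1.88e-10), while the endocytic adaptor Dab2 went from 79.9 to 0.192 (adjusted edgeR p 2.02e-08). Of 3 genes that come on around weaning, 0 were higher and 1 lower: Fut2, a fucosyltransferase, went from a mean of 35.9 CPM to 1.18 (adjusted edgeR p 0.000313), where adult WT ileum held 166. Fabp6 and Slc10a2, both of ileal bile acid uptake, were not called and stood at a mean of 0.192 and 2.07 CPM at E18 against 3825 and 183 in adult WT ileum, so that in these genes the libraries labelled E18 were far from the adult ones. The adult libraries are of ileum and those of E18 of small intestine, and the kits differ, so that stage, region and kit cannot be told apart here. Of 7 genes of citrulline and arginine synthesis, 3 were lower and 1 higher; Oat, ornithine aminotransferase, was lower by 1.98 (-1.98, SE 0.27, adjusted edgeR p 5.16e-06).

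After deletion at E10, 27 of the 34 related genes, the targeted Cdx2 among them, were lower than in E16 WT and 3 higher, where 27.6% and 23.9% of all genes were called. All 7 genes of citrulline and arginine synthesis were lower, led by Cps1, carbamoyl phosphate synthetase of the mitochondrion (log2 fold change -6.71, SE 0.74, adjusted edgeR p 1.54e-07). So were 7 of 8 regulators, among them Hnf4a (-3.61, SE 0.33, adjusted edgeR p 1.02e-08) and Cdx1 (-6.06, SE 0.56, adjusted edgeR p 2.37e-08). Cdx2, the targeted gene, is itself counted among the lower regulators. After deletion at E13, 7 were higher and 11 lower than in E16 WT, where 18.7% and 20.8% of all genes were called, so that the share of higher genes was near that of all genes. The higher ones included all 4 of sugar uptake, with Slc2a2, the basolateral glucose transporter, at 4.63 (SE 0.51, adjusted edgeR p 3.06e-07). Against E18 WT the same libraries had 4 higher and 8 lower, where 8.19% and 7.91% of all genes were called, and 3 of the 4 sugar genes were among the lower.

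After deletion at E15, 2 related genes were higher and 9 lower than in E18 WT, where 7.79% and 9.7% of all genes were called. All 4 sugar genes were lower, from -1.55 for Khk (SE 0.18, adjusted edgeR p 2.34e-06) to -2.48 for Slc5a1 (SE 0.66, adjusted edgeR p 0.00695). The scavenger receptor Cubn fell (-4.26, SE 0.60, adjusted edgeR p 2.77e-05) and Oat fell (-2.21, SE 0.28, adjusted edgeR p 6.23e-06), while Fut2 was higher (6.68, SE 1.04, adjusted edgeR p 6.63e-05). In the adult, 3 of 33 were higher and 12 lower, where 8.41% and 12% of all genes were called. There too Cubn (-5.39, SE 0.33, adjusted edgeR p 0.00194) and Oat (-2.82, SE 0.20, adjusted edgeR p 0.00265) were lower and Fut2 higher (2.22, SE 0.39, adjusted edgeR p 0.0162), and Fabp6 was lower (-4.72, SE 0.54, adjusted edgeR p 0.00591). Of the 8 regulators, 0 were called after deletion at E15, and in the adult 0 were higher and 1 was lower, Maf (-1.39, SE 0.14, adjusted edgeR p 0.00454), which encodes a transcription factor of the enterocyte.

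**Figure D5:**
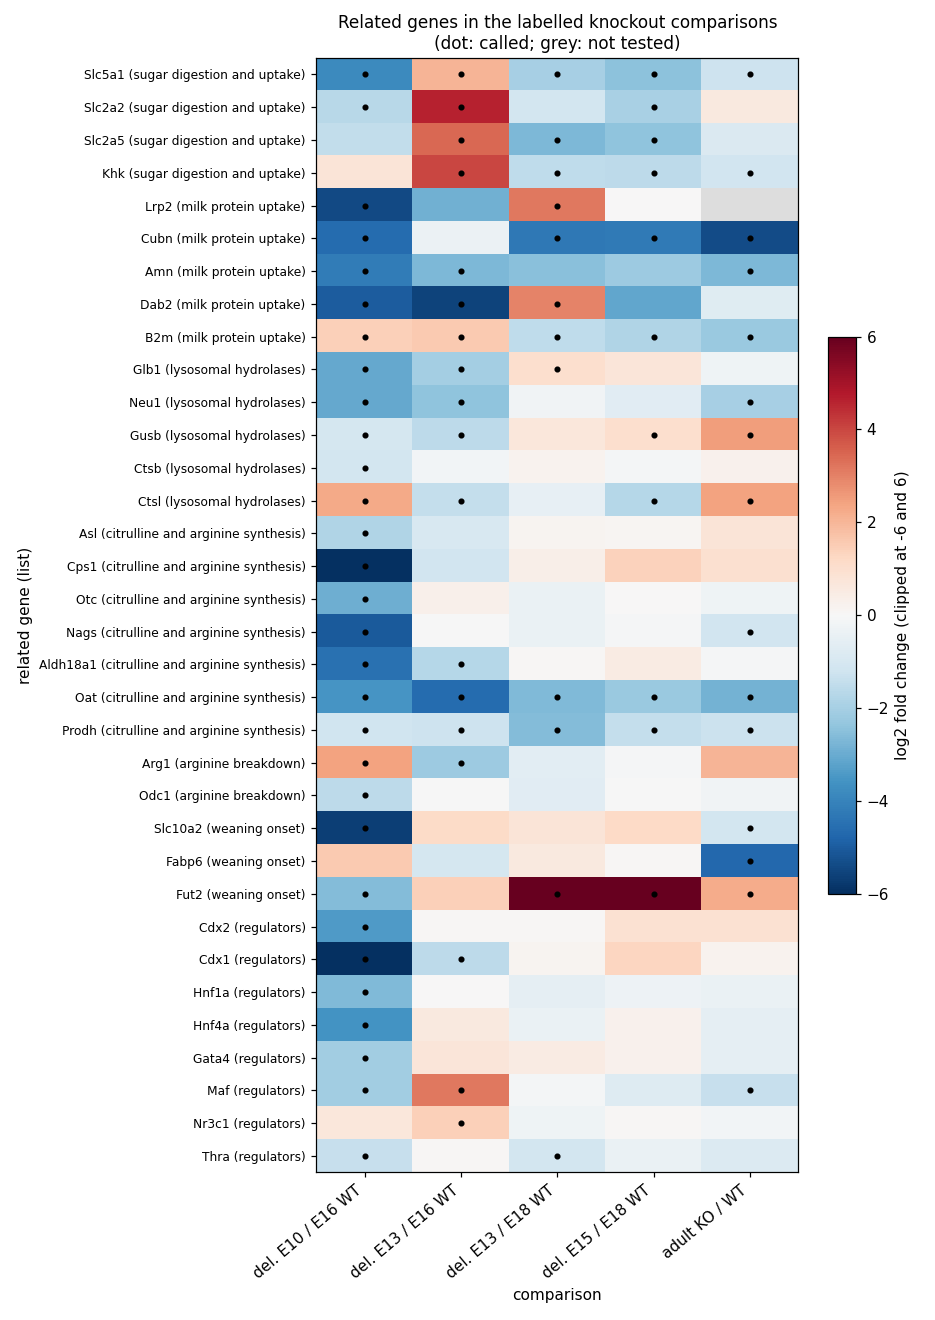
log2 fold change (colour, clipped at -6 and 6) of the 34 related genes (vertical axis, with their list) in the 5 comparisons of libraries labelled knockout with WT (horizontal axis); dots mark called genes. The column of deletion at E10 holds 27 lower genes, the targeted Cdx2 among them. The 4 sugar genes are called higher for deletion at E13 against E16 WT, and 2 of them lower for deletion at E10 against E16 WT.

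The genes whose pattern over the 15 groups, stomach included, was most like that of Lct were Cyp2j6 (Pearson r of mean log2 CPM 0.955), Slc28a1 (0.954) and Pck1 (0.946). Those most like Sis were Slc13a2 (0.982), Clec2h (0.976) and Slc2a7 (0.975). Among the members themselves, Lct had an r of 0.864 with Sis, 0.733 with Fcgrt, 0.722 with Mgam, 0.698 with Treh, 0.316 with Ass1 and 0.296 with Prdm1. These are descriptions over 15 group means, which share libraries, depth and cell makeup across genes.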

How the data were processed

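RNA-seq read counts per gene symbol, as the authors deposited them in 1 table without normalization, were used for 31 libraries of the 74 samples; those of ATAC-seq and ChIP-seq are not analysed here. The submitters' processing notes name STAR 2.5.3a, HTSeq, Bowtie2, MACS2 and the mm9 build, with no roles; the annotation and the strand setting of the counting are not given in the sources used here, so overlapping or antisense genes could be counted together. Per the labels, embryonic libraries were made with a SMARTer-Seq low-input kit and adult ones with TruSeq, both read single-end. Of 24015 symbols, 22709 matched the mouse gene name table. 2 columns matched no sample used here and were left out.

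Each adult column has 2 blank cells, and the values below them were moved up here before any test. For the 1676 genes that lie between the blanks, the adult libraries' Spearman correlation with E18 WT was 0.281 to 0.295 as deposited and 0.93 to 0.962 closed up; over the 1730 genes below, 0.476 to 0.488 and 0.957 to 0.974. Of the members only Treh is affected (deposited adult counts 0, 2, 0 and 0; closed up 4159, 1961, 135 and 126).

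Total counts ran from 5970227 to 62463167 (median 21910062). A gene with 3 counts or fewer in each library of a group was held to be at the floor, and floors cover counting error only, since the labels name no molecular identifiers that would mark PCR copies. CPM use TMM-scaled library sizes over all 31 libraries. Tests were edgeR 4.0.16 quasi-likelihood tests in R 4.3.3, with TMM scaling and filterByExpr (minimum count 10): 27 embryonic libraries in 13 groups in 1 fit (17239 genes) and 4 adult libraries in another (12444). A gene was called at a Benjamini-Hochberg adjusted p below 0.05 over all genes tested and an absolute log2 fold change of at least 1. SE is the log2 fold change over the square root of F. The alternatives were RLE scaling, DESeq2 1.42.0, no filter, adjusted p alone, other sets of libraries in the fit, a replicate block, the adult columns as deposited, and leaving out each library.

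On simulated counts for deletion at E13 against E16 WT (16244 genes), 98 of 100 genes changed 4-fold and 100 of 100 changed 8-fold were recovered with 9 false calls. For the adult comparison (12219 genes) it was 92 of 100 and 95 of 100 with 8 false calls. The simulation gave every gene the same dispersion and, apart from the changed genes, the same expected share in all groups. Real replicate pairs differed widely in spread, so these figures check the code and do not give the error rates in these data. The members and lists were chosen with earlier results of these data known; 1 further member and 1 related gene are not reported here. Named are Cdx2, the 7 members, up to 4 called related genes per list with the largest log2 fold change and average log2 CPM of 2 or more, and the 3 genes most like Lct and Sis. Promoters came from the RefSeq table (GRCm38.p6), searched on both strands.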

Additional observations from a re-analysis of the deposited data

Results flagged for a closer look

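The effect of the deletion labelled E13 (against E16 WT) and that labelled E15 (against E18 WT) differed by the interaction test of the edgeR fit in 6 members. The difference in log2 fold change, first minus second, was 8.07 for Sis, 7.53 for Mgam, for Treh 14.93 with the first effect taken at its lower bound, and 1.41 for Lct. It was -1.83 for Prdm1 and -6.94 for Ass1. Both libraries of each group lay on the same side of their WT group in each of these genes. The call of Lct was lost in a fit of all libraries (adjusted edgeR p 0.173) and without E16 WT replicate 2 or E15 replicate 1. The 2 effects have different WT groups, and E16 WT and E18 WT differed in tissue preparation and in all 7 members.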

How the results depend on the processing

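Counts of called members stayed within 1.5 times of those reported under 137 recomputations and left that range under 1. In a fit of only the groups compared, 1 member was called from E12 to E14; in the adult, leaving out 1 library gave 2 to 3. Single members kept their direction and their side of the threshold in 824 recomputations, lost a call in 47, gained one in 18 and changed sign in 9, none of which had been called. The sign changes were Ass1 from E12 to E14 (-0.0277 with RLE scaling, -0.0292 with DESeq2, -0.1548 to 0.2438 leaving out 1 library), Fcgrt after deletion at E13 against E18 WT (-0.0162 with RLE scaling, -0.0163 with DESeq2, -0.0067 to 0.0365 leaving out 1 library), Lct between deletions at E13 and E10 (-0.0764, without E10 replicate 1, to 0.4289), and adult Prdm1 (-0.0547, without knockout replicate 2, to 1.1892). With RLE scaling the median over all genes went from -0.08 to 0.03 on the log2 scale for E14 to E16, where Prdm1 was then not called, and from 0 to -0.19 against forestomach. Same-numbered replicates did not deviate together (correlations -0.101 to 0.167), so the numbers name libraries only; with a replicate block 4, 6, 7, 5 and 5 members were called in the WT comparisons (E12 to E14, E14 to E16, E16 to E18, forestomach, hindstomach), 7, 7, 5, 6 and 3 in the knockout comparisons (E10, E13 against E16, E13 against E18, E15, adult), 6 between the 2 deletions at E16 and 6 in the interaction. With the adult columns as deposited, 2 adult members were called. Depth limits Treh up to E16 and Sis up to E14, where 3 counts correspond to 0.0388 to 0.154 CPM. With the adjusted p alone, without the fold threshold, genes called went from 2795 to 5159 (E12 to E14), 4415 to 7029 (E14 to E16), 4422 to 6657 (hindstomach), 3015 to 5239 (E15), 2775 to 4376 (E13 against E18) and 2544 to 4298 (adult).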
